A study of Mus musculus with 6 samples.

Results

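The 10 genes described here encode nuclear receptors and coregulators that set the oxidative metabolism of the heart: the peroxisome proliferator-activated receptors (Ppara, Ppard, Pparg), their partner receptor Rxra, the estrogen-related receptors (Esrra, Esrrb, Esrrg), the PGC-1 coactivators (Ppargc1a, Ppargc1b) and the corepressor Nrip1. They were chosen by gene symbol, and each of the 10 was found among the 24421 genes of the deposited table. The samples were 6 libraries of poly(A) RNA from hearts of C57/Bl6 mouse embryos at stage E18.5. Of these, 3 were labelled wildtype and 3 Gas2l3 -/-, with no Cre, treatment or further allele named. Nothing in the labels states that the 3 samples of a group were different embryos; each p-value therefore rests on sample-to-sample spread that could be technical. Values of a group are listed below in the order of replicates 1, 2 and 3.

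As background, PPARs bind DNA as pairs with RXR and are switched on by fatty acids, whereas ERRs bind DNA without a known natural hormone and take their activity from PGC-1. PGC-1 proteins bind both receptor families and raise transcription of genes for fatty acid oxidation, the citric acid cycle and the respiratory chain, and Nrip1 (RIP140) acts on the same receptors in the opposite direction. The fetal heart burns mainly glucose and lactate and turns to fatty acids around birth, a switch in which these regulators take part.

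Promoter sequences are shown for 3 members: Esrra, Ppargc1a and Pparg. Esrra was the most abundant. Ppargc1a was lower in each knockout-labelled library once GC content and length trends were removed, as were 8.16% of 11709 genes. Pparg was the 1 member whose groups did not overlap as deposited. It was higher in each knockout-labelled library, as were 5.02% of 12121 genes. None of the 3 passed the test between the groups described below. Each sequence is the run of 250 bases before a RefSeq start site (GRCm38.p6, the assembly of mm10). It is given 5′ to 3′ on the gene's strand, with motif matches in capitals. For Pparg, RefSeq lists 3 starts, and the one shown has no GENCODE exon inside its stretch; the Esrra and Ppargc1a stretches hold 5 and 1 exonic bases. They lie at chr19:6921809-6922058 (minus strand), chr5:51567726-51567975 (minus strand) and chr6:115421816-115422065 (plus strand).
Esrra: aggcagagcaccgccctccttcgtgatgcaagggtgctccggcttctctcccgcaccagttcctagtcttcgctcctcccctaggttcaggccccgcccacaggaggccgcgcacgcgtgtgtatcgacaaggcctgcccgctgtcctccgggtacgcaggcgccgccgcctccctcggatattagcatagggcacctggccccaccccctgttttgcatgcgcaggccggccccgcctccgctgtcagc
Ppargc1a: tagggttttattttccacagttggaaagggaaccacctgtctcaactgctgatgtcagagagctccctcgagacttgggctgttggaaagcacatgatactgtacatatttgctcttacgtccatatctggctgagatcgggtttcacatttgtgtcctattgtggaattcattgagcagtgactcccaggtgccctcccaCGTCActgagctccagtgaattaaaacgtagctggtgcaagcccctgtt
Pparg: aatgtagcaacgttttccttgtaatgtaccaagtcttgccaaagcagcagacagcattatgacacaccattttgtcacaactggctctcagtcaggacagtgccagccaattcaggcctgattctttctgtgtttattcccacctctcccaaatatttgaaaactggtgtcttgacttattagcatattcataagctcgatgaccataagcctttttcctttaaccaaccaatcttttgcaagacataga

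The Esrra stretch is rich in G and C, at 68.4%, whereas those of Ppargc1a and Pparg are at 48.0% and 40.8%, below the median of 52.4% over 32851 RefSeq stretches. A value per gene does not tell which Pparg start was used in these hearts. Motifs were searched on both strands: the nuclear receptor core AGGTCA, the ERR element, which is that core after TNA, the PPAR direct repeat, which is that core repeated with a single base between the copies, and the cAMP response core TGACG. Of the 3 stretches shown, only that of Ppargc1a holds a match, TGACG on the opposite strand from base -49, a motif found in 17.8% of all. Among the stretches not shown, AGGTCA, found in 14.0% of all, stands at the other Pparg starts, from base -28 and base -9, and at 1 Rxra start. TGACG stands there too, at 1 Esrrb start from base -158 and base -117, and at the Ppara start from base -222. The ERR element (1.14% of all) and the direct repeat (0.0335%) are in no listed stretch of the 9 members searched. Such matches describe letters, not binding.

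Before the members, the libraries themselves need description. Recovered reads per library ran from 3414257 to 7732674. Gas2l3, the targeted gene, had 10.3, 4.12 and 2.48 FPKM under the wildtype label against 4.03, 2.99 and 3.06 FPKM under the Gas2l3 -/- label, called knockout-labelled here. Wildtype-labelled replicate 3 was thus below every knockout-labelled library, and since the deleted exons are not named, this value does not check the genotype. Defining genes of heart muscle were present: all 10 cardiomyocyte markers passed the expression minimum, with sums of 28025 to 56749 FPKM in wildtype-labelled and 27010 to 32644 FPKM in knockout-labelled libraries. Marker sums overlapped between the groups for 11 of the 12 tissues and cell types listed; summed atrial markers were at 2066 to 5246 FPKM in wildtype-labelled and 6497 to 8524 FPKM in knockout-labelled libraries, although 3 of the 7 genes had a higher mean and their median log2 fold change was -0.014. In whole hearts, fewer cells of a type and less RNA per cell cannot be told apart.

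No member passed the test between the groups. Limma, on log2(FPKM + 0.5) with Benjamini-Hochberg adjustment over 12121 genes, called 0 of the 10 members (adjusted p from 0.966 to 0.9999), where 0% of all genes tested were called and 394 had an unadjusted p under 0.05. Mean log2 values, the scale of all such counts here, were lower in knockout-labelled libraries for 7 members and higher for 3, with a median log2 fold change of -0.20, beside -0.0089 and lower means for 51.0% over all genes. The groups overlapped for 9 of 10 members. Pparg was the exception, higher in each knockout-labelled library, as were 5.02% of all genes tested, and no member was lower in each, as were 4.74%. In the authors' deposited table, which calls 0.0735% of 12243 genes, the adjusted p was 0.998 for each of the 10 members.

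**Figure D1:**
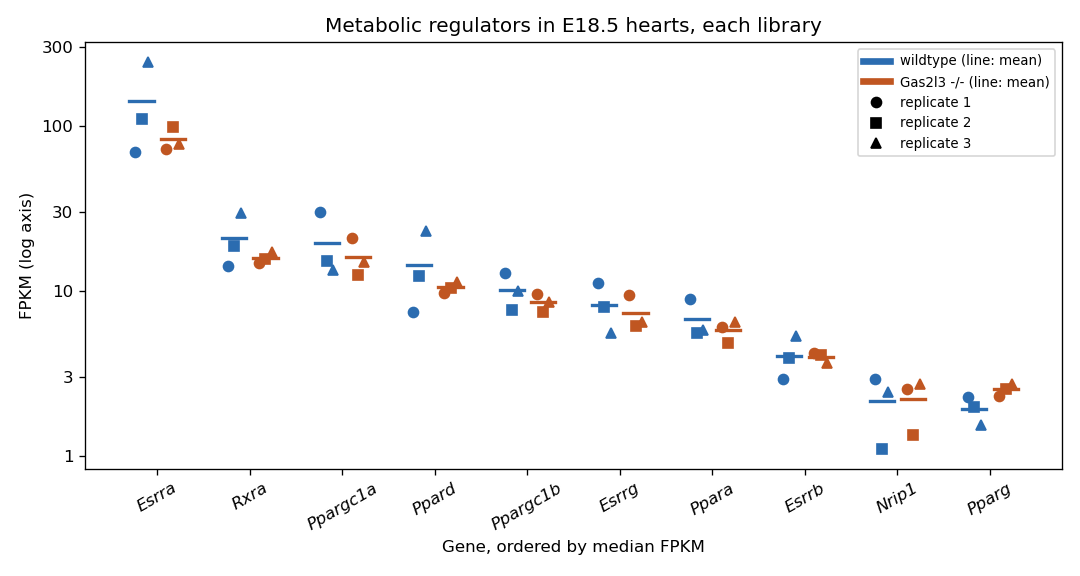
FPKM of each regulator in each of the 6 libraries, on a log axis, with a symbol per replicate number and a line at each group's mean of 3. Esrra stands above the rest in every library, wildtype-labelled replicate 3 is the highest for 4 genes and wildtype-labelled replicate 1 for 5.

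Levels in FPKM, which are per transcript length, had means over the 6 libraries from about 2 FPKM for Nrip1 and Pparg to 112 FPKM for Esrra. By median over the 6 libraries the order was Esrra (87.8 FPKM), Rxra (16.5), Ppargc1a (15.04), Ppard (10.9), Ppargc1b (9.08), Esrrg (7.26), Ppara (5.97), Esrrb (4.01), Nrip1 (2.51) and Pparg (2.32). Only Esrra against Rxra and Esrrb against Nrip1 were neighbours with ranges that did not meet. The latter ranges almost touched, as the lowest Esrrb value was 2.938 FPKM and the highest Nrip1 value 2.936 FPKM. Rxra and Ppargc1a were in this order in 4 of 6 libraries, Esrrg and Ppara in 4, and Nrip1 and Pparg in 3. The mean of Esrra lay at the 94.1st percentile of genes tested and that of Nrip1 at the 11.7th.

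Among the PPARs, Ppara, the receptor that drives fatty acid oxidation in heart and liver, stood at 8.98, 5.59 and 5.85 FPKM in wildtype-labelled libraries, against 6.09, 4.85 and 6.48 FPKM in knockout-labelled libraries. Replicate 1 of the wildtype-labelled group was the high value and the other 5 libraries lay close together. The log2 fold change of Ppara (chromosome 15, 85734983 to 85802819, mm10) was -0.19 (SE 0.27, adjusted p = 0.966). These Ppara values came from 197 to 338 reads a library.

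Ppard, the most widely expressed PPAR, was at 7.45, 12.3 and 23.1 FPKM in wildtype-labelled libraries, against 9.70, 10.4 and 11.4 FPKM in knockout-labelled libraries. The wildtype-labelled libraries held both the lowest and the highest value, and the knockout-labelled ones fell between them. Its log2 fold change (chromosome 17, 28232700 to 28301474) was -0.29 (SE 0.38, adjusted p = 0.966) and was 0.12 without wildtype-labelled replicate 3. On 90 to 453 reads, Ppard spanned 3.10-fold from its lowest to its highest library.

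Pparg, the receptor of fat cell formation, also found in macrophages and endothelium, was the second lowest member by mean. It was at 2.30, 1.98 and 1.56 FPKM in wildtype-labelled libraries, against 2.33, 2.56 and 2.74 FPKM in knockout-labelled libraries. Every knockout-labelled value was above every wildtype-labelled one, but the nearest pair differed by less than the SD of either group, and only 20 to 44 reads per library were counted. The log2 fold change (chromosome 6, 115360951 to 115490399) was 0.33 (SE 0.26, 95% interval -0.26 to 0.91, adjusted p = 0.966). Fat markers summed to 12.5 to 18.1 FPKM in wildtype-labelled and 12.8 to 21.6 FPKM in knockout-labelled libraries, with 2 of 8 tested, and Plin1, Cidec and Lep under 1 FPKM in every library. Macrophage markers summed to 53.6 to 111 FPKM and 82.4 to 132 FPKM, with higher means for 5 of 7, and endothelial markers to 295 to 631 FPKM and 439 to 518 FPKM, with higher means for 5 of 7; the part of these cells in the Pparg values was not tested.

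Rxra, the RXR form that pairs with PPARs in heart, followed Ppard. It was at 14.2, 18.6 and 29.8 FPKM in wildtype-labelled libraries, against 14.8, 15.7 and 17.3 FPKM in knockout-labelled libraries. Again the wildtype-labelled group held both extremes. For Rxra the log2 fold change (chromosome 2, 27676440 to 27762957) was -0.32 (SE 0.31, adjusted p = 0.966). It was -0.035 without wildtype-labelled replicate 3 and -0.55 without wildtype-labelled replicate 1. Over the 6 libraries the log2 values of Rxra and Ppard correlated at r = 0.98, given as a description only.

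Esrra, the ERR that serves with PGC-1 in mitochondrial gene expression, had the widest range. It was at 69.4, 111 and 244 FPKM in wildtype-labelled libraries, against 72.2, 98.3 and 77.3 FPKM in knockout-labelled libraries. Wildtype-labelled replicate 3 stood apart and wildtype-labelled replicate 1 was the lowest of all. For Esrra the log2 fold change (chromosome 19, 6910977 to 6921813) was -0.59 (SE 0.45, 95% interval -1.62 to 0.44, adjusted p = 0.966), the largest in size among the 10, and -0.098 without wildtype-labelled replicate 3 or -1.001 without wildtype-labelled replicate 1. Exons of Esrra share 73 bases with Trmt112 on the opposite strand, and whether strand was used in counting is not given, so some reads may belong to either gene. Trmt112 had the same 2 extremes, at 28.4 FPKM in wildtype-labelled replicate 1 and 115 FPKM in wildtype-labelled replicate 3. Ppard, Rxra and Esrrb had them as well, with no exon overlap listed. Mir6990, which overlaps Esrra exons on the same strand, did not. It was at 11.8, 10.2 and 9.08 FPKM in wildtype-labelled libraries, against 15.4, 16.4 and 4.81 FPKM in knockout-labelled libraries. The part of shared reads in the Esrra values was not tested.

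Esrrb, known from embryonic stem cells and placenta, was present in these hearts at 2.94, 3.92 and 5.35 FPKM in wildtype-labelled libraries, against 4.21, 4.09 and 3.66 FPKM in knockout-labelled libraries. Between 51 and 151 reads per library were counted. The group means were 4.07 ± 1.21 and 3.99 ± 0.291 FPKM (SD, n = 3 each), and the log2 fold change (chromosome 12, 86361117 to 86521628) was 0.0054 (SE 0.27, 95% interval -0.61 to 0.62, adjusted p = 0.9999). That interval is wide enough to hold changes of 1.5-fold in either direction, so equality was not shown.

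Esrrg, the ERR tied to the oxidative program of late fetal and newborn heart, was at 11.2, 8.04 and 5.58 FPKM in wildtype-labelled libraries, against 9.49, 6.14 and 6.47 FPKM in knockout-labelled libraries. Both replicates 1 were the highest of their group. The log2 fold change (chromosome 1, 187608791 to 188214885) was -0.13 (SE 0.31, adjusted p = 0.969) and was 0.10 without wildtype-labelled replicate 1. Against the Esrra values the order of the wildtype-labelled libraries was turned around: replicate 3 was the highest for Esrra and the lowest for Esrrg.

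The coactivator Ppargc1a, which encodes PGC-1α and responds to cold, exercise and fasting in adult tissues, was at 30.2, 15.1 and 13.5 FPKM in wildtype-labelled libraries, against 20.9, 12.5 and 14.9 FPKM in knockout-labelled libraries. Here too both replicates 1 were high. The log2 fold change (chromosome 5, 51454250 to 51567726) was -0.22 (SE 0.36, adjusted p = 0.966) and was 0.13 without wildtype-labelled replicate 1. The group means were 19.6 ± 9.19 and 16.1 ± 4.32 FPKM (SD, n = 3 each), so their difference was smaller than the SD of either group.

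Ppargc1b, encoding the related coactivator PGC-1β, was at 12.8, 7.66 and 9.96 FPKM in wildtype-labelled libraries, against 9.56, 7.51 and 8.59 FPKM in knockout-labelled libraries. In both groups replicate 1 was the highest and replicate 2 the lowest, and the groups overlapped. The log2 fold change (chromosome 18, 61298136 to 61400431) was -0.21 (SE 0.26, adjusted p = 0.966), and it was -0.035 without wildtype-labelled replicate 1 or -0.39 without wildtype-labelled replicate 2. Nrip1, the corepressor, had 2.94, 1.10 and 2.46 FPKM in wildtype-labelled libraries, against 2.56, 1.35 and 2.74 FPKM in knockout-labelled libraries, on 33 to 86 reads. Replicate 2 was the low library in both groups. Its log2 fold change (chromosome 16, 76287400 to 76373827) was 0.057 (SE 0.38, adjusted p = 0.988).

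**Figure D2:**
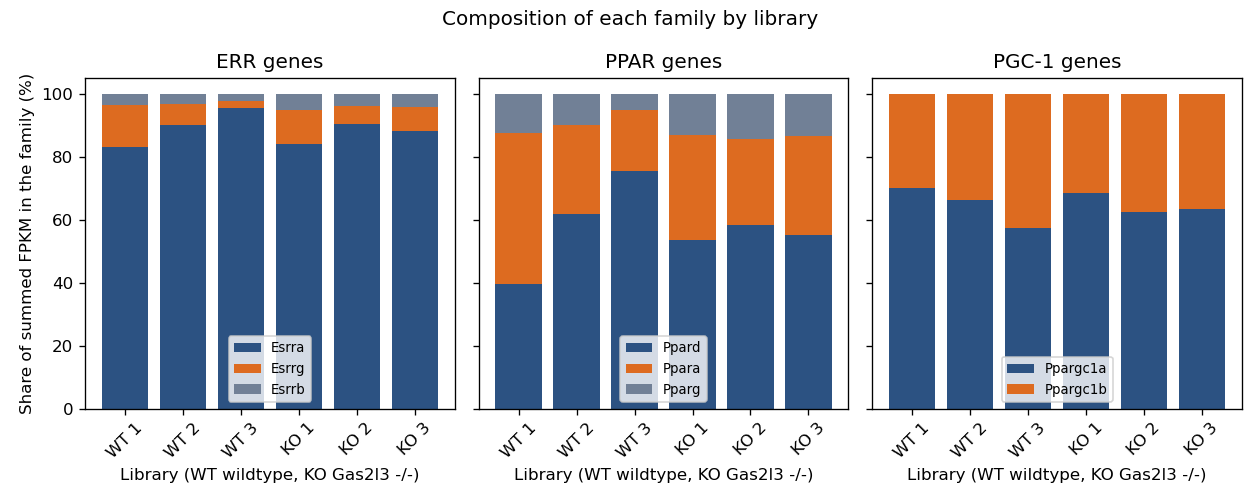
Share of each gene in the summed FPKM of its family, in percent, for each library (WT labelled wildtype, KO labelled Gas2l3 -/-). Esrra makes up 83.1% to 95.7% of ERR FPKM, and the PPAR bars change most between WT 1 and WT 3, where Ppard goes from 39.8% to 75.7%.

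The make-up of each family varied widely among wildtype-labelled libraries. Esrra was 83.1%, 90.2% and 95.7% of summed ERR FPKM in wildtype-labelled replicates 1, 2 and 3 and 84.1%, 90.6% and 88.4% in the knockout-labelled ones. Ppara was 47.9%, 28.1% and 19.2% of PPAR FPKM in wildtype-labelled libraries and 33.6%, 27.2% and 31.4% in knockout-labelled ones, so wildtype-labelled replicate 1 was the only library in which Ppara exceeded Ppard. Ppargc1a was the larger PGC-1 in all 6 libraries, at 57.5% to 70.2%. The log2 ratio of Esrrg to Esrra was -3.95 ± 1.42 in wildtype-labelled and -3.50 ± 0.541 in knockout-labelled libraries (SD, n = 3 each). For the summed PGC-1 genes against Nrip1, activators against a repressor of the same receptors, the log2 ratio was 3.83 ± 0.560 and 3.52 ± 0.397, and these groups overlapped as well.

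**Figure D3:**
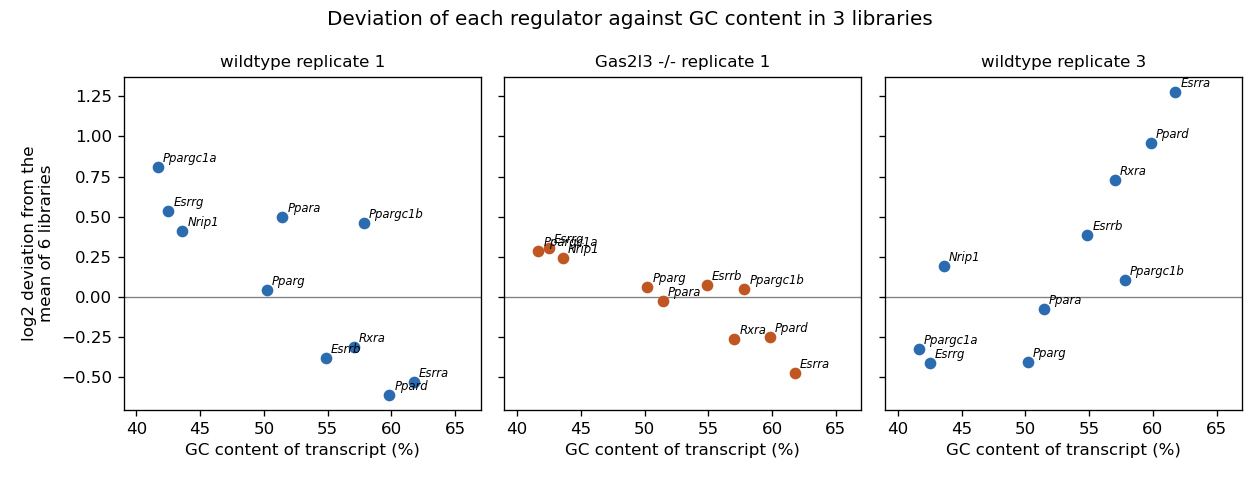
Deviation of each regulator's log2(FPKM + 0.5) from its mean over the 6 libraries, against the GC content of its transcript in percent, in 3 libraries; each point is a gene. The points fall with GC content in both replicates 1 and rise with it in wildtype-labelled replicate 3, from -0.41 for Esrrg to 1.27 for Esrra.

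The members' values varied with the base composition of their transcripts. GC content, from the longest protein-coding transcript, was 41.7% for Ppargc1a, 42.5% for Esrrg and 43.6% for Nrip1, and 57.0% for Rxra, 57.8% for Ppargc1b, 59.8% for Ppard and 61.8% for Esrra, around a median of 50.4% over all genes with a value. In wildtype-labelled replicate 3, GC content and the deviation from each gene's mean had r = 0.80 across the 10 members and r = 0.72 across 11709 tested genes. In wildtype-labelled and knockout-labelled replicates 1 the members' r was -0.79 and -0.89, and that of all genes -0.49 and -0.51. In the other 3 libraries r was 0.49 for the members and -0.057 for all genes in wildtype-labelled replicate 2, 0.53 and -0.13 in knockout-labelled replicate 2, and -0.30 and -0.17 in knockout-labelled replicate 3. Genes are not independent replicates, so these are descriptions of the libraries. Within wildtype-labelled replicate 3, Esrra lay 1.27, Ppard 0.96 and Rxra 0.73 above their own means on the log2 scale, whereas Esrrg lay at -0.41 and Ppargc1a at -0.32. Not every member followed its GC content. Nrip1, low in GC, lay at 0.19 in that library. Ppargc1b, high in GC, lay at 0.11 there and at 0.46 in wildtype-labelled replicate 1.

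The genes most like each member, by Pearson correlation of log2 values over the 6 libraries, differed in number as well as name. The 3 nearest to Esrra were Coro7, Fkbp8 and Hsf1, at r = 0.9997, 0.9996 and 0.9991, and 1153 tested genes exceeded r = 0.95 with it. Ppard was nearest to Adrm1 and Snapc2, and Rxra to D17H6S53E, Zfp553 and Tbrg4, with 694 and 749 genes above that value. For Ppargc1a the nearest were Ppp6r3, Sox6 and Myo5a, for Esrrg Cep83, Smek1 and Gabpa, and for Ppara Enpep, Klf12 and 1700021K19Rik, with 152, 167 and 57 genes above it. Pparg (Sqrdl, Snord95, Ctsc), Esrrb (1700020L24Rik, Kdm8, Gm10638), Ppargc1b (Rdh5, Mical3, Syne3) and Nrip1 (Lrsam1, Bach2, Ago2) had 64 to 81. The GC content of the neighbours ran from 55.7% to 63.0% for Esrra and was 45.7% to 46.1% for Ppargc1a. It was not near that of the member in every case. For Nrip1, itself at 43.6%, the neighbours were at 48.9% to 55.4%. For Ppara, itself at 51.5%, Enpep and Klf12 were both at 45.5%. These likenesses rest on 6 libraries that differ in depth and composition.

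**Figure D4:**
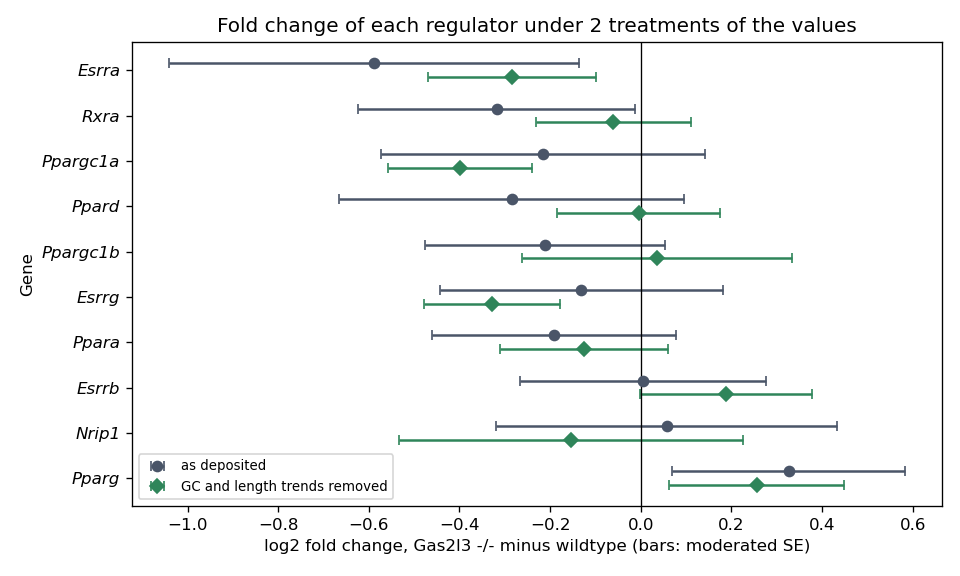
Log2 fold change of each regulator, Gas2l3 -/- labelled minus wildtype labelled, from values as deposited (circles) and after trends on GC content and length were removed from each library (diamonds), with moderated SE bars from 3 against 3 libraries. With trends removed Esrra moves from -0.59 to -0.28 and Ppargc1a from -0.22 to -0.40.

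Once the GC content and length trends of each library were taken out, the spread of most members narrowed and the order of their fold changes was rearranged. The range over 6 libraries fell from 1.81 to 0.64 on the log2 scale for Esrra and from 1.57 to 0.50 for Ppard. It became narrower for 8 of 10 members and wider for Ppargc1b (0.73 to 1.23) and Nrip1 (1.10 to 1.49). Over all genes with a GC value the median range went from 1.08 to 0.75. Limma again called none of the 10 (adjusted p from 0.590 to 0.994).

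Ppargc1a and Esrrg were then lower in each knockout-labelled library than in any wildtype-labelled one. Ppargc1a stood at 4.43, 4.11 and 4.44 in wildtype-labelled and 4.001, 3.87 and 3.91 in knockout-labelled libraries on the log2 scale, a difference of -0.40 (SE 0.16, adjusted p = 0.590). For Esrrg the values were 3.09, 3.20 and 3.26 against 2.95, 2.86 and 2.75, a difference of -0.33 (SE 0.15, adjusted p = 0.661). Esrra was at 6.55, 6.79 and 7.06 against 6.43, 6.65 and 6.47, and these groups overlapped (-0.28, SE 0.19, adjusted p = 0.728). Pparg remained higher in each knockout-labelled library (0.26, SE 0.19, adjusted p = 0.749). So 2 members were lower and 1 higher without overlap, where 8.16% and 6.99% of 11709 genes were. Rxra (-0.060, SE 0.17) and Ppard (-0.0050, SE 0.18) had differences near 0 after this step. The log2 ratio of Esrrg to Esrra then had means of -3.69 and -3.76, with a range of -3.89 to -3.54 in place of -5.45 to -2.63. The range of Ppara to Ppard narrowed too. That of Ppargc1a to Ppargc1b widened, to 0.49 to 1.80 in place of 0.44 to 1.23. That of the summed PGC-1 genes to Nrip1 also widened, to 2.72 to 4.43 in place of 3.10 to 4.37.

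**Figure D5:**
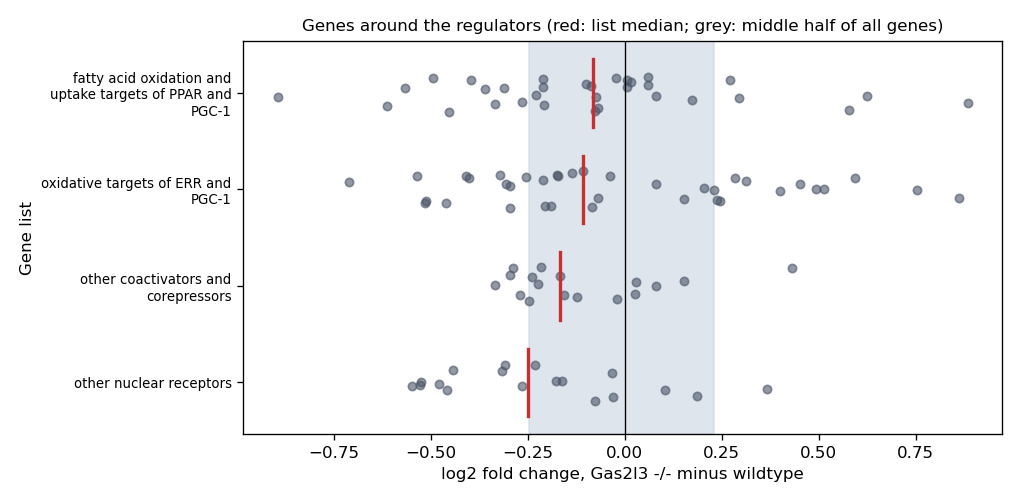
Log2 fold change of genes around the regulators, Gas2l3 -/- labelled minus wildtype labelled, one point per tested gene and one row per list, with the list median in red and the range between the quartiles of all 12121 tested genes in grey. Medians run from -0.25 for the other nuclear receptors to -0.081 for fatty acid genes, and points of both metabolic lists lie on both sides of 0.

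Genes that PPARs, ERRs and PGC-1 are known to drive were described from lists. Of 34 genes of fatty acid uptake and oxidation, 32 were tested, 0 were called in either direction, 20 had lower and 12 higher means, and the median log2 fold change was -0.081. Groups did not overlap for 5 lower (Acot1, Acot2, Slc27a1, Cpt2, Acaa2) and 1 higher (Hadhb) of the 32, beside 4.74% and 5.02% of all genes tested. With trends removed the split turned to 3 lower (Acot1, Cpt2, Acaa2) and 4 higher (Hadhb, Cd36 and Plin5 among them), beside 8.16% and 6.99%. Acot1, a cytosolic thioesterase that releases fatty acids from coenzyme A, was at 8.37, 11.0 and 12.9 FPKM in wildtype-labelled libraries, against 7.14, 4.64 and 4.92 FPKM in knockout-labelled libraries (-0.89 on the log2 scale, SE 0.27, adjusted p = 0.966). Acot2, its mitochondrial relative, was at -0.45 (SE 0.24); the 2 genes are near-identical copies, so their reads may be split. The fatty acid transporter gene Slc27a1 was at -0.57 (SE 0.30).

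Hadhb, the thiolase subunit of the mitochondrial trifunctional protein, went the other way, at 132, 73.8 and 59.8 FPKM in wildtype-labelled libraries, against 146, 191 and 133 FPKM in knockout-labelled libraries (0.88, SE 0.37, adjusted p = 0.966). Its lowest knockout-labelled value was just above its highest wildtype-labelled one. Hadhb is lower in GC content (45.4%), and with trends removed its difference was 0.69, still without overlap, as was that of Acot1 at -0.81.

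Of 37 genes of the citric acid cycle, respiratory chain and mitochondrial upkeep, each of which was tested, 0 were called, 22 had lower and 15 higher means, and the median was -0.11. Ckmt2, the mitochondrial creatine kinase of striated muscle, was at 130, 108 and 213 FPKM in wildtype-labelled libraries, against 214, 350 and 242 FPKM in knockout-labelled libraries (0.86, SE 0.37, adjusted p = 0.966). Uqcrc2, a core subunit of complex III, was at 0.59 (SE 0.38), the fumarase gene Fh1 at 0.51 (SE 0.34) and Vegfa, an angiogenic factor that PGC-1α can induce, at 0.75 (SE 0.50), each with overlapping groups as deposited. As deposited, Ckmt2 was higher and Ndufv1 and Atp5a1 lower without overlap, that is 1 and 2 of 37 beside 5.02% and 4.74% of all genes. With trends removed, Ndufv1 and Atp5a1 overlapped, and 5 genes were higher (Ckmt2, Fh1, Uqcrc2, Slc25a4, Perm1) and 3 lower (Cox7a1, Gabpa, Sirt3) without overlap, beside 6.99% and 8.16%. Cardiomyocyte markers were lower in mean for 8 of 10 (median -0.45), and their part in these lists was not tested.

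Neither coregulators nor receptors outside the 10 were called. Of 17 other coactivators and corepressors tested, 12 had lower means and the median was -0.17; the 4 with the smallest p were Tbl1xr1 (0.43, SE 0.38), Ncoa1 (-0.27, SE 0.24), Ep300 (-0.29, SE 0.29) and Prkaa2 (-0.30, SE 0.32), and as deposited the groups overlapped for all 17. With trends removed, 3 of the 17 (Ncoa1, Ncoa2, Prkaa2) were lower without overlap, beside 8.16% of all genes. The median of these coregulators ran from -0.30 without wildtype-labelled replicate 2 to -0.061 without wildtype-labelled replicate 3, and was 0.016 with library weights. Of 24 other nuclear receptors 18 were tested, 15 had lower means and the median was -0.25. The mineralocorticoid receptor gene Nr3c2 was at -0.48 (SE 0.30), the clock receptor gene Nr1d1 at -0.55 (SE 0.35), Nr1h2 (liver X receptor beta) at -0.53 (SE 0.40) and the thyroid hormone receptor gene Thra at -0.46 (SE 0.35), each with overlapping groups as deposited and an adjusted p of 0.966. Thra was at 63.5, 91.3 and 149 FPKM in wildtype-labelled libraries, against 66.7, 71.0 and 70.1 FPKM in knockout-labelled libraries, again highest in wildtype-labelled replicate 3. The median GC content of the tested receptors was 56.9%. With trends removed their median was -0.16, with 12 of 18 lower; Thra and Nr1h2 were then lower and Nr4a1 higher without overlap, beside 8.16% and 6.99% of all genes. As deposited, the median was -0.12 without wildtype-labelled replicate 3.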

How the data were processed

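Total RNA was DNase-treated, poly(A)-selected and made into libraries with 13 PCR cycles, per the labels' protocols; FastQC, DESeq2 and mm10 are named in the submitters' processing notes. Which aligner, counter, annotation and strand setting served was not given in the sources used here. The authors deposited FPKM per gene and library, which from the values are scaled by size factors, plus, for the contrast of groups, their results with a mean normalized count, log2 fold change, p-value and adjusted p-value. Whole reads were recovered from both (100% of 94235 values above 0 whole within 0.01). They cover counting error only, since PCR copies cannot be told apart.

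Limma (version 3.58.1, R 4.3.3, intensity trend, two-sided) was fitted on log2(FPKM + 0.5) for 12121 genes with 1 FPKM or more in at least 3 libraries; an adjusted p under 0.05 (Benjamini-Hochberg) counted as called. The unit is FPKM, so no count test was the main one. Fold changes on this scale understate those of low genes. The fit was tested on data simulated without the GC trends of these libraries. The planted changes were larger than any member's, so changes of the members' size were not tested. The members and lists were chosen with earlier results of these data known. All 10 members were named, the 4 genes of smallest p per list and the 3 nearest genes of each tested member; other list genes with groups that do not overlap were named after their values were seen. Some genes these rules pick are not reported here. Loess trends (span 0.3) on GC content (GENCODE M21, found for 96.6% of tested genes) and on implied length were removed per library as an alternative. Deviations of same-numbered libraries correlated at 0.472, 0.443 and 0.185. A pairing by number would rest on these values alone, and differently numbered libraries were not compared, so it was not shown. Promoters are from RefSeq (GRCm38.p6) and were searched for 9 of 10 members. Member stretches on chromosome 18, where Ppargc1b lies, were left out of the search. Coordinates are 1-based.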

Additional observations from a re-analysis of the deposited data

How the results depend on the processing

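Apart from the default library weighting below, no alternative called a member (lowest adjusted p 0.405 over 177 fits of a member). The number of genes called stayed at 0 except with GC and length trends removed (1, Ppp1r1b) and with library weights estimated gene by gene (2, Ppp1r1b and Mir6981). The default weighting stopped before convergence, with weights of 0.0979 to 18.1; it called 5038 genes, Pparg, Esrra and Nrip1 among them, and is not used. Esrra, Rxra and Pparg kept their direction in every alternative run. The replicate block alone changed no call (0 genes called), but added to the removal of trends it ended the call of Ppp1r1b (0 called). Rescaling to a common total moved the median of all genes to 0.15; it put Esrrg at 0.031 and the fatty acid and oxidative lists at 0.097 and 0.072. Quantile normalization put Esrrb at -0.062, Nrip1 at -0.016 and the oxidative list at 0.053. Voom put Esrrb at -0.0096, and library weights put Ppara at 0.0021, Nrip1 at 0.62 (SE 0.32) and the coregulator list at 0.016. With trends removed, with or without the replicate block, Ppargc1b was at 0.035 and Nrip1 at -0.15. With 1 library left out, log2 fold changes ran from -0.31 to 0.011 (Ppara), -0.66 to 0.12 (Ppard), -0.18 to 0.20 (Esrrb), -0.37 to 0.10 (Esrrg), -0.43 to 0.13 (Ppargc1a), -0.39 to -0.035 (Ppargc1b), 0.21 to 0.43 (Pparg) and -0.27 to 0.31 (Nrip1). The signs turned without wildtype-labelled replicate 1 (Ppara, Esrrb, Esrrg, Ppargc1a), replicate 2 (Esrrb, Nrip1) or replicate 3 (Ppard), and without knockout-labelled replicate 1 (Esrrb, Nrip1), replicate 2 (Esrrb) or replicate 3 (Nrip1). List medians then ran from -0.22 to -0.0014 (fatty acid), -0.16 to 0.051 (oxidative), -0.30 to -0.061 (coregulators) and -0.36 to -0.12 (nuclear receptors). The causes were not tested. Pparg and Nrip1 rest on 20 to 44 and 33 to 86 reads per library, the fewest among the members.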
